A study of Homo sapiens with 6 samples.

Results

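Of the 57773 gene rows counted in HepG2 cells, 158 noncoding or formerly noncoding RNAs named as long intergenic RNAs (LINC, 137 of 614 rows), as microRNA (miRNA) host genes (MIRHG, 8 of 20 rows) or as small nucleolar RNA (snoRNA) host genes (SNHG, 13 of 15 rows) had at least 10 reads in each of the 6 libraries. The members were chosen by name and by this read minimum, so their level was used by the choice. The difference between the groups was not a criterion, but earlier results of these data were known. The minimum also acted unevenly on the groups. For 12 LINC rows only vehicle libraries were under it, and for 4 only TGFβ libraries. HepG2 is an established hepatoblastoma-derived liver cell line. Cultures received recombinant human TGFβ1 at 5 ng/mL or the same volume of vehicle for 3 h in medium without serum, with 3 cultures in each group, and polyadenylated RNA was sequenced. No genetic change separates the groups, and the libraries come from a single cell line. The comparison asks which of these RNAs differed after 3 h of TGFβ.

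TGFβ binds serine/threonine kinase receptors that phosphorylate SMAD2 and SMAD3, which enter the nucleus with SMAD4 and alter transcription. A miRNA host RNA is the long primary transcript from which DROSHA and DICER1 cut short miRNAs, and these pair with target mRNAs through a seed near their 5′ end. A snoRNA host RNA carries snoRNAs in its introns. The snoRNAs guide chemical modification of ribosomal RNA, while the spliced host exons are often unstable. LINC is a naming class and not a family, since its RNAs share neither sequence nor a role.

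The mature miRNAs of the hosts are shown because they are the known products of the hosts. RefSeq (GRCh38.p14) placed hairpins on the same strand inside 7 of the 8 hosts. For MIRLET7DHG none was matched, because RefSeq held no entry of that name. The row MIRLET7D lies inside the MIRLET7DHG row in hg19, on the opposite strand. The capitals mark the seed, bases 2 to 8 from the 5′ end, and 1 arm is shown for each hairpin.
hsa-miR-17-5p: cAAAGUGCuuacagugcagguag
hsa-miR-20a-5p: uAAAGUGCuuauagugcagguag
hsa-miR-18a-5p: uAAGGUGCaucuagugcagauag
hsa-miR-19a-3p: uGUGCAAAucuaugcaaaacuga
hsa-miR-19b-3p: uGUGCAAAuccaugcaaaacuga
hsa-miR-92a-3p: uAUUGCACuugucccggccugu
hsa-miR-195-5p: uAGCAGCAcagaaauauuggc
hsa-miR-497-5p: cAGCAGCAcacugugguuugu
hsa-miR-4458: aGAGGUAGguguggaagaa
hsa-miR-143-3p: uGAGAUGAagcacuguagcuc
hsa-miR-145-5p: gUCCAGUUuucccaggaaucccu
hsa-miR-22-3p: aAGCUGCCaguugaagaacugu
hsa-miR-210-3p: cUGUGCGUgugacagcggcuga
hsa-miR-600: aCUUACAGacaagagccuugcuc
From MIR17HG come miR-17, miR-18a, miR-19a, miR-20a, miR-19b and miR-92a, from MIR497HG miR-195 and miR-497, and from MIR143HG miR-143 and miR-145. The seed AAAGUGC was shared by miR-17-5p and miR-20a-5p, the seed GUGCAAA by miR-19a-3p and miR-19b-3p, and the seed AGCAGCA by miR-195-5p and miR-497-5p. No seed was shared between the 7 hosts with matched hairpins, and MIRLET7DHG could not be compared. Libraries of polyadenylated RNA do not measure mature miRNAs, so the values below are those of the hosts and not of these miRNAs.

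The libraries held between 60815385 and 88415362 reads on genes in vehicle cultures and between 73263662 and 100099136 in TGFβ cultures. Known TGFβ targets were higher in every treated culture: SMAD7, the inhibitory SMAD, had a log2 fold change of 1.72 ± 0.11 (SE) and SKIL, a SMAD corepressor, of 2.45 ± 0.11, and the 4 of 4 target genes examined passed the test. Hepatocyte markers summed to between 37400 and 41900 normalised read counts scaled to library size (CPM) with vehicle and between 36000 and 40700 with TGFβ, while the defining leukocyte and endothelial genes CD3E and KDR were at 0. The summed CPM of 7 fibroblast markers was between 52.5 and 57.3 with vehicle and between 62.7 and 71.3 with TGFβ. Most of it was ACTA2, with a mean of 39.7 CPM with vehicle and 39.2 CPM with TGFβ (log2 fold change -0.02 ± 0.08). COL1A1 and PDGFRB were called higher with the culture block, and COL1A2, COL3A1, DCN and LUM were near 0. The part of the summed markers in the results below was not tested. Same-numbered cultures deviated together, so a fit with culture number as a block is given beside the fit without it wherever it changed a call. In such bulk RNA, less RNA per cell and fewer cells with the RNA cannot be told apart.

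LINC RNAs took between 0.114% and 0.126% of the reads of a library, SNHG RNAs between 0.063% and 0.082%, and MIRHG RNAs between 0.00391% and 0.00469%. Levels between genes were compared as deposited RPKM, reads per kilobase scaled to library size. The median level was 0.402 RPKM for LINC members, 0.687 RPKM for MIRHG members and 5.45 RPKM for SNHG members, against 2.93 RPKM for all 20503 tested genes with the same read minimum. Fewer than 1 RPKM was measured for 98 of the 137 LINC members and for 6 of the 8 MIRHG members, but for 0 of the 13 SNHG members. Per length the SNHG members had the highest median of the 3 classes, and the median standard error of their log2 fold changes was 0.10, against 0.25 for LINC and 0.17 for MIRHG members.

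A single RNA, LINC00657, now named NORAD and known to bind PUMILIO proteins, held between 43.9% and 50.3% of the LINC reads of each library. Its level ranged between 80.5 and 94.5 RPKM and its log2 fold change was 0.04 ± 0.08. The next LINC members by level were LINC00493 at a mean of 29.6 RPKM, LINC00526 at 9.03, LINC00261 at 8.88 and LINC00176 at 8.0. LINC00493 and LINC00176 are annotated as protein-coding today, as SMIM26, a small mitochondrial protein, and as C20orf204. LINC00261, transcribed next to the liver factor gene FOXA2, had 57.1, 61.6 and 87.1 CPM with vehicle and 55.9, 39.5 and 61.4 CPM with TGFβ, and these groups overlapped. None of the 5 passed the test with or without the block. Of the 137 LINC members, 133 were found by identifier in GENCODE, where 39 had another symbol and 14 were annotated as protein-coding.

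**Figure D1:**
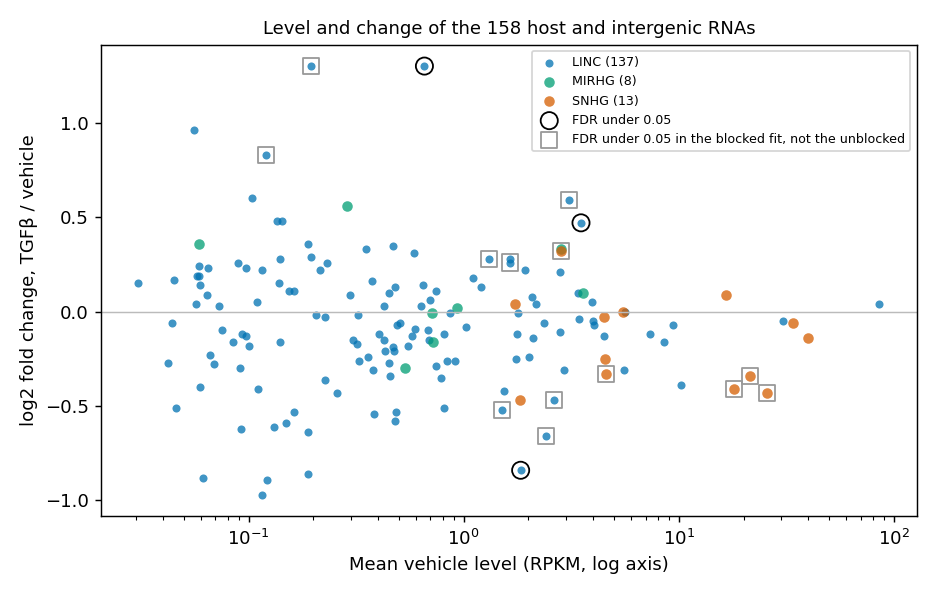
Mean vehicle level of each of the 158 RNAs (deposited RPKM, log axis) against its log2 fold change between TGFβ and vehicle cultures, with 1 point per RNA coloured by class. Circles mark the 3 RNAs with an FDR under 0.05 and squares the 13 that reached it in the fit with the culture block and not in the fit without it. The most abundant RNA, LINC00657, lies near 0.

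Among LINC members, 3 of 137 (2.19%) passed an FDR of 0.05 in edgeR's quasi-likelihood test, against 4.12% of all 22747 genes tested, with 2 higher and 1 lower (3.11% and 1.01% of all genes). With the culture block, 11 of 137 (8.03%) passed, 7 higher and 4 lower, against 11.8% of all genes (8.08% higher and 3.75% lower). The class median log2 fold change was -0.07, beside -0.01 over all genes, and the members ranged from -0.97 to 1.30, with 55 above and 82 below 0. All 3 TGFβ cultures lay above all 3 vehicle cultures for 9 LINC members (6.57%), against 10.4% of all genes, and below them for 20 (14.6%), against 8.23%. In all 3 same-numbered pairs the treated culture was higher for 23 LINC members (16.8%), against 23.3% of all genes, and lower for 37 (27%), against 20.9%.

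LINC01137 had the smallest FDR in the class. This RNA, now named ZC3H12A-DT, is encoded on the minus strand of chromosome 1 (hg19, chr1:37920480-37940012). It had 118, 83 and 61 reads in controls against 235, 237 and 208 under TGFβ. Every treated culture held more than every control. Its CPM rose from 1.11 ± 0.197 to 2.74 ± 0.278 (SD, n = 3 each), a log2 fold change of 1.30 ± 0.19 (SE) with an adjusted P of 0.0045 by edgeR.

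LINC00511 rose by less but was measured more precisely. It is a long RNA gene on the minus strand of chromosome 17 (chr17:70319264-70636611). The vehicle cultures had 33.6, 37.7 and 38.2 CPM and the TGFβ cultures 48.7, 50.8 and 52.5 CPM. The groups did not overlap, and the log2 ratios of same-numbered cultures were close to each other, at 0.54, 0.43 and 0.46. The log2 fold change was 0.47 ± 0.08, with an adjusted P of 0.00805 by edgeR.

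LINC01071, now TUSC8, was the LINC member that fell without the block. It lies on the minus strand of chromosome 13 (chr13:44974386-44980120). It had 254, 215 and 211 reads in controls against 162, 115 and 137 under TGFβ, so every treated culture lay below every control. The log2 fold change was -0.84 ± 0.18, with an adjusted P of 0.0337 by edgeR and of 0.00249 with the block. The call depended on every library but TGFβ culture 3. Leaving out vehicle culture 1, 2 or 3 or TGFβ culture 1 or 2 gave an adjusted P by edgeR between 0.0657 and 0.173. Only leaving out TGFβ culture 3 kept the call.

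A further 8 LINC RNAs passed the test in the fit with the culture block and not in the fit without it. Some alternatives without the block also called 3 of them, LINC00598 and LINC01146 without a filter on low counts and LINC00205 and LINC01146 with DESeq2. LINC00598, on chromosome 13 (chr13:41025131-41055143), had 19, 15 and 21 reads in controls against 35, 57 and 53 under TGFβ. Its log2 fold change was 1.30 ± 0.37, with an adjusted P of 0.0993 without the block and 0.0189 with it, at few reads. LINC00982, now PRDM16-DT, had 77, 49 and 62 reads in controls against 189, 109 and 76 under TGFβ. Its TGFβ culture 3 lay only just above its partner, since the log2 ratios of the pairs were 1.16, 1.20 and 0.05. The adjusted P was 0.197 without the block and 0.0486 with it.

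LINC00205 had 6.48, 5.01 and 4.06 CPM with vehicle and 8.99, 8.05 and 6.43 CPM with TGFβ. These groups overlapped, while each culture lay above its partner by 0.47, 0.69 and 0.66 on the log2 scale, and the adjusted P was 0.152 without the block and 0.00237 with it. LINC00963 (log2 fold change 0.26 ± 0.08, adjusted P with the block 0.0175) and LINC00969 (0.28 ± 0.11, 0.0132) were the smaller of the rises. LINC00969 lies in a region with copies of SDHA and MUC20 sequences and overlaps the pseudogene row SDHAP2 on its strand, so its count is uncertain.

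The LINC RNAs that fell in the blocked fit and not in the unblocked one were LINC01146, LINC00242 and LINC00854. LINC01146, now HISLA, had 4.89, 6.07 and 7.65 CPM with vehicle and 4.0, 4.24 and 3.51 CPM with TGFβ, without overlap. Its log2 fold change was -0.66 ± 0.18, with an adjusted P of 0.0813 without the block and 0.0211 with it. LINC00242 had a log2 fold change of -0.52 ± 0.22 and an adjusted P with the block of 0.0212. It overlaps LINC00574 on the opposite strand, another member, which had a log2 fold change of -0.51 ± 0.23 and an adjusted P with the block of 0.0549. Strand use in counting is not given in the sources used here, so reads from this pair cannot be told apart.

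**Figure D2:**
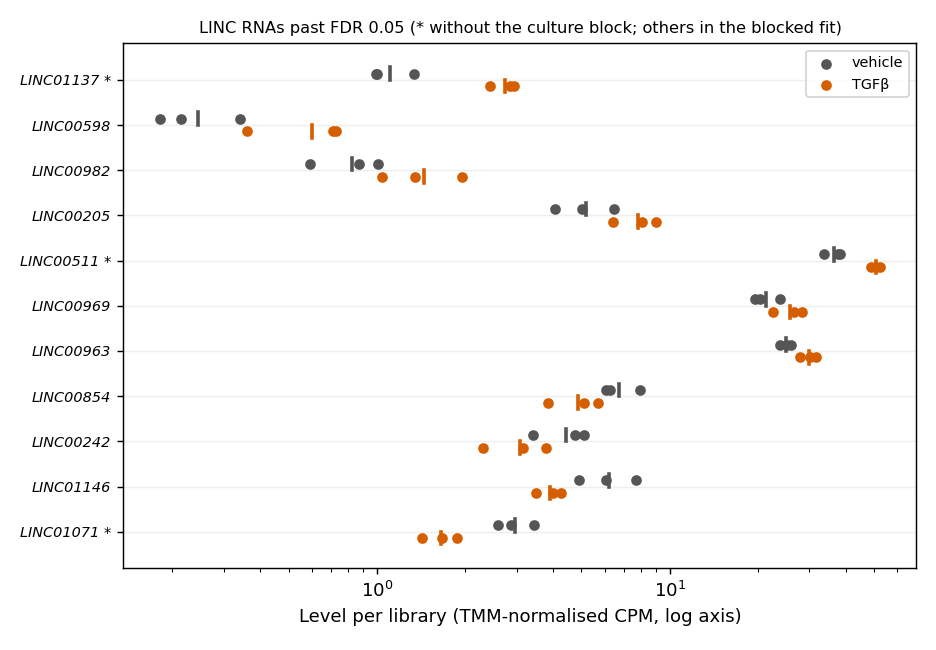
Level of the 11 called LINC RNAs in each library (TMM-normalised CPM, log axis), with 1 point per culture and a vertical bar at each group mean (n = 3). The 3 RNAs marked with an asterisk passed an FDR of 0.05 without the culture block, and LINC01137 and LINC00511 show treated cultures clear of the controls.

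RefSeq start-site windows of 300 bases (250 before and 50 after the start) were matched for 95 of 137 LINC members, though not for LINC01137. Of the 11 called LINC members 7 were matched, and the windows of 3 are shown: LINC00511 and LINC01071 because they were called without the block, and LINC00598 because it held the most matches. Capitals mark matches to CAGAC or GTCTG, the letters bound by SMAD proteins, and to the AP-1 letters TGAGTCA or TGACTCA. The windows are LINC00511 (GRCh38.p14, chr17:72640423-72640722), LINC01071 (chr13:44405935-44406234) and LINC00598 (chr13:40480955-40481254), each read from the minus strand.
LINC00511: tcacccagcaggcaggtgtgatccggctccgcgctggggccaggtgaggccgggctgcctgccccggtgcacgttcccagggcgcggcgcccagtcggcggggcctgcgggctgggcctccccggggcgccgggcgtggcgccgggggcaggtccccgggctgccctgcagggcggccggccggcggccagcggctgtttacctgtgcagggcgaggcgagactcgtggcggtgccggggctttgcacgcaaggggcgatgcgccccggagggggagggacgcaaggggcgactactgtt
LINC01071: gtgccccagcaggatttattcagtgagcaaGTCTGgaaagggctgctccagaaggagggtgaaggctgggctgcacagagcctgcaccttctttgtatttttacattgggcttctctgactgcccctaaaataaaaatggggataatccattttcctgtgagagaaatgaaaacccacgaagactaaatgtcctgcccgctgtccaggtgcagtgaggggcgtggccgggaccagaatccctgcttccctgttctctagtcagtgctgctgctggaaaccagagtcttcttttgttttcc
LINC00598: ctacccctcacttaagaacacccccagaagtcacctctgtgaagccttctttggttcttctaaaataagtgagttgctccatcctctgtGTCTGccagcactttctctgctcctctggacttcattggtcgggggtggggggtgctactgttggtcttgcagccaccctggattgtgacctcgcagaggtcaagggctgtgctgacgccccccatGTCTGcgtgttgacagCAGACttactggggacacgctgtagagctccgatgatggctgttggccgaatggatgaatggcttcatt
LINC00511 had 0 matches, LINC01071 had 1 and LINC00598 had 3 to the SMAD letters, and none of the 3 windows held the AP-1 letters. Of the other 4 matched, LINC00963 held the AP-1 letters at 1 place and no SMAD letters, LINC00242 held the SMAD letters at 2 places, LINC00205 at 1, and LINC00982 had neither. The SMAD letters occurred in 45.3% of all 35116 windows and in 49.5% of the LINC windows, and the AP-1 letters in 4.95% and 6.32%. A match describes letters in a window and is not a binding site.

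The gene next to a LINC RNA was examined because several LINC RNAs start beside a coding gene. LINC01137 starts 141 bp from ZC3H12A, which encodes the endoribonuclease Regnase-1 on the opposite strand. ZC3H12A had 900, 791 and 652 reads in controls against 1705, 1510 and 1236 under TGFβ. It rose by 0.81 ± 0.10 on the log2 scale, with an adjusted P of 0.00115 by edgeR, as its neighbour did. LINC00982 starts 731 bp from PRDM16, the gene of a zinc-finger transcription factor, also on the opposite strand. PRDM16 had 75, 58 and 55 reads in controls against 154, 109 and 103 under TGFβ, a log2 fold change of 0.84 ± 0.20 with an adjusted P of 0.0488 by edgeR, beside 0.83 ± 0.29 for LINC00982.

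In all, 12 LINC members had an opposite-strand nearest tested gene within 1000 bp that did not overlap them, and in 10 of the 12 both log2 fold changes had the same sign, 3 positive and 7 negative. LINC00115 and LINC01128 were each other's neighbour and count as 2 of the 12. Apart from the pairs with ZC3H12A and PRDM16, neither RNA of these pairs passed the test without the block. With the block SP5, the neighbour of LINC01124, also passed in edgeR (log2 fold change -0.28 ± 0.13, adjusted P with the block 0.00943). Neighbours come from the same libraries, and many of the changes in these pairs were smaller than their errors. Over all 137 LINC members the nearest tested gene lay at a median of 2890 bp, and 42 overlapped it and may share reads with it. The 2 log2 fold changes had the same sign for 87 of 137, with a Pearson correlation of 0.18 and a Spearman correlation of 0.32. No such share was taken for other neighbouring genes. Of these neighbours 9 were called (6.57%, against 4.12% of all genes), or 24 with the block (17.5%, against 11.8%).

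Other called LINC RNAs had neighbours with values of their own. LINC00854 overlaps TMEM106A on the opposite strand, and TMEM106A fell with a log2 fold change of -0.43 ± 0.08 and an adjusted P of 0.0137 by edgeR, beside -0.47 ± 0.18 for LINC00854. Their reads cannot be told apart without strand. The nearest tested gene to LINC00598 was FOXO1, a forkhead transcription factor gene 74661 bp away, with a log2 fold change of 0.41 ± 0.12 and an adjusted P of 0.108 without the block and 0.000809 with it. For LINC01071 it was TSC22D1, known as a TGFβ-stimulated gene, 27535 bp away, with -0.19 ± 0.08 and an adjusted P of 0.343 without the block and 0.0423 with it. The nearest tested row to LINC00511, RP11-57A1.1, overlaps it on the opposite strand and had 110, 98 and 72 reads in controls against 210, 136 and 132 under TGFβ. Its change was 0.66 ± 0.18 on the log2 scale, with an adjusted P of 0.0928 without the block and 0.0258 with it, and its reads cannot be told apart from those of LINC00511 without strand. The nearest tested coding gene, the zinc transporter gene SLC39A11, lies 5477 bp away and had a log2 fold change of 0.01 ± 0.11.

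**Figure D3:**
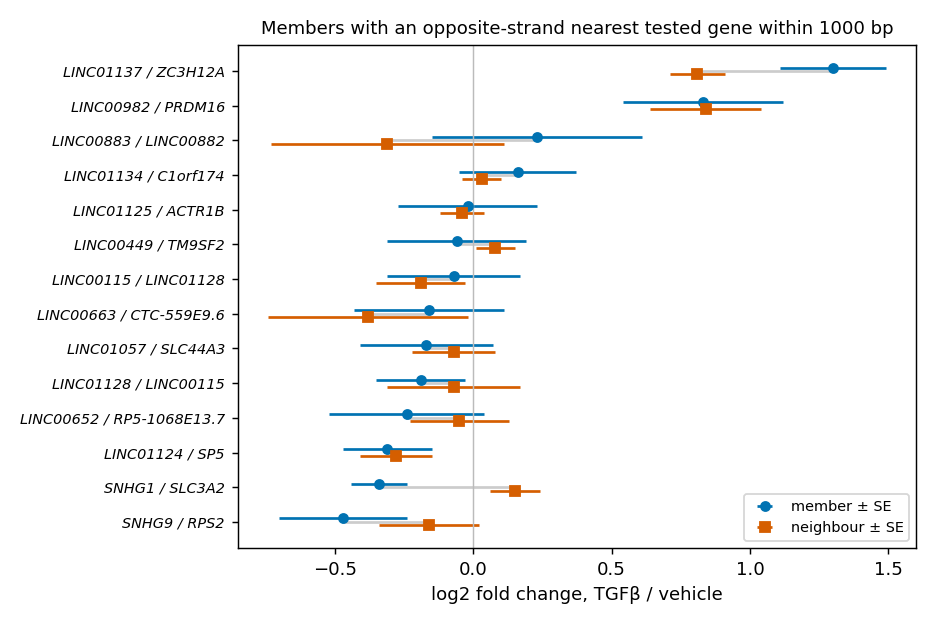
Log2 fold changes (TGFβ against vehicle) with standard errors for the 14 members, 12 LINC and 2 SNHG, whose nearest tested gene lies on the opposite strand within 1000 bp, with circles for the members and squares for the neighbours. LINC01137 with ZC3H12A and LINC00982 with PRDM16 lie farthest to the right, and SNHG1 and SLC3A2 lie on opposite sides of 0.

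Among the 13 SNHG members, 0 passed an FDR of 0.05 in edgeR without the block, against 4.12% of all genes, while 6 had an unadjusted P under 0.05, 1 higher and 5 lower, against 13.7% of all genes. DESeq2 called 1 and limma-voom 0. With the block, 5 of 13 (38.5%) passed, 4 lower and 1 higher, against 11.8% of all genes. The members lay between -0.47 and 0.32 on the log2 scale around a class median of -0.14, and 9 of 13 were below 0. For 6 of 13 (46.2%) every TGFβ culture lay below every vehicle culture, against 8.23% of all genes, and for 1 (7.69%) above, against 10.4%. In all 3 same-numbered pairs the treated culture was lower for 7 of 13 (53.8%), against 20.9% of all genes.

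SNHG1, the host of a series of C/D-box snoRNAs beside SLC3A2, had 91.6, 96.4 and 107 CPM with vehicle and 75.1, 70.1 and 88.3 CPM with TGFβ. Every treated culture lay below every control. Its log2 fold change was -0.34 ± 0.10, with an adjusted P of 0.113 without the block and 0.00156 with it. The gene on its other side, SLC3A2, the heavy chain of an amino acid transporter, starts 132 bp away on the opposite strand and had a log2 fold change of 0.15 ± 0.09 with an adjusted P of 0.535 by edgeR.

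SNHG3 carries the H/ACA-box snoRNAs SNORA73A and SNORA73B. It had 81.5, 86.1 and 101 CPM with vehicle and 67.5, 56.9 and 78.5 CPM with TGFβ, again without overlap. The log2 fold change was -0.41 ± 0.12, with an adjusted P of 0.125 without the block and 0.0012 with it. The row of SNORA73B itself had 160, 405 and 239 reads in controls against 99, 131 and 152 under TGFβ. Its log2 fold change was -1.16 ± 0.36, with an adjusted P of 0.138 without the block and 0.0013 with it. The groups of SNORA73B overlapped, since vehicle culture 1 had 1.81 CPM and TGFβ culture 3 had 2.09 CPM. SNHG3 overlaps RCC1, the exchange factor gene for RAN, on the same strand, and RCC1 had a log2 fold change of -0.11 ± 0.08 and an adjusted P of 0.659 by edgeR. The rows of SNHG3, SNORA73B and RCC1 may share reads, so the count of SNHG3 is uncertain.

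SNHG8, the host of SNORA24, had 24, 26.7 and 35.7 CPM with vehicle and 19.5, 17.8 and 26.9 CPM with TGFβ. The groups overlapped because culture 3 was the highest of both, yet each treated culture lay below its partner, by log2 ratios of -0.30, -0.59 and -0.41. The adjusted P was 0.309 without the block and 0.00147 with it. SNHG17, the host of the SNORA71 snoRNAs, had 24.2, 22.9 and 22.6 CPM with vehicle and 18.3, 19.8 and 17.5 CPM with TGFβ. The log2 fold change of SNHG17 was -0.33 ± 0.08, with an adjusted P of 0.0712 without the block and 0.00822 with it. The groups did not overlap.

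SNHG11 was the SNHG member that rose with the block. It had 9.74, 8.72 and 10.6 CPM with vehicle and 11.6, 12.1 and 12.6 CPM with TGFβ, without overlap. A log2 fold change of 0.32 ± 0.11 had an adjusted P of 0.188 without the block and 0.0331 with it. SNHG11 (chr20:37075221-37079564) and SNHG17 (chr20:37049235-37063996) are close to each other on opposite strands of chromosome 20, and with the block one rose and the other fell.

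Of the others, SNHG9 (log2 fold change -0.47 ± 0.23), SNHG12 (-0.25 ± 0.09) and SNHG16 (-0.14 ± 0.07) also had every treated culture below every control and did not pass the test with or without the block. SNHG16 is the most abundant per length, at 37.6 RPKM, and held between 33.2% and 37.1% of the SNHG reads. SNHG5 (-0.06 ± 0.15), SNHG7 (-0.03 ± 0.09), SNHG10 (0.00055 ± 0.10), SNHG14 (0.04 ± 0.09) and SNHG6 (0.09 ± 0.11) had changes below their errors, and their groups overlapped. For SNHG5, SNHG7, SNHG10 and SNHG14 the sign turned when some libraries were left out, and for SNHG10 and SNHG14 also with scaling by total count. SNHG14 is the long transcript over the SNORD115 and SNORD116 clusters of the imprinted Prader-Willi region. Its row overlaps those of SNRPN and SNURF on the same strand, so its count is uncertain. In all, 9 of the 13 SNHG members overlap a tested row and may share reads with it, among them SNHG16 with ST6GALNAC2 on the opposite strand.

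**Figure D4:**
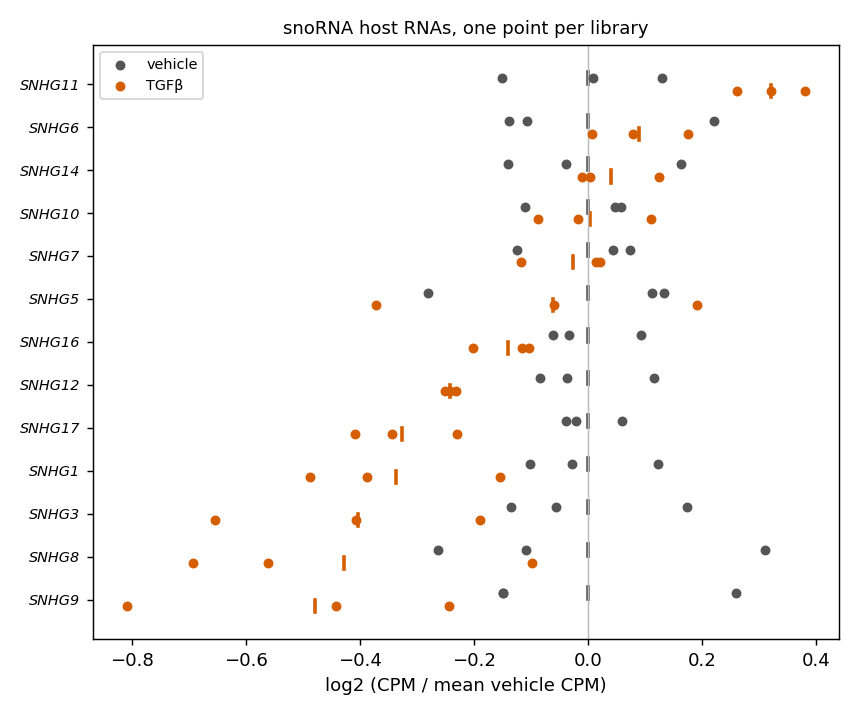
Level of each of the 13 snoRNA host RNAs per library as log2 of its CPM over the mean vehicle CPM, with 1 point per culture, dark for vehicle and orange for TGFβ, and a vertical bar at each group mean. Treated points lie left of all vehicle points for SNHG1, SNHG3, SNHG9, SNHG12, SNHG16 and SNHG17, and right of them for SNHG11.

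Many snoRNA hosts are known to begin with a C followed by a run of pyrimidines, the terminal oligopyrimidine tract of genes for the translation machinery. The first 30 bases from the RefSeq start (GRCh38.p14) are shown for the 5 SNHG RNAs called with the block and for 3 that were not (SNHG12, SNHG16 and SNHG5), with the first 8 bases in capitals.
SNHG1: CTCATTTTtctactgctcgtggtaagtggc
SNHG3: GATTCTCTaactgcgcatgcttctgcgcac
SNHG8: CACATTCGggaagcgtcgggattaggtgaa
SNHG17: AGTCCTTCgccgtccctcgccgtccttcgc
SNHG12: CCTTTCTCcccgccgcattcccggtgtcga
SNHG16: GCGTTCTTttcgaggtcggccgcgtggctg
SNHG5: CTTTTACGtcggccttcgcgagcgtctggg
SNHG11: GCAGCCGCgcccccagccgtatttccgcgg
Of the 11 SNHG members matched, 2 (18.2%), SNHG12 and SNHG5, started with C and then 4 bases that were each C or T, against 4.07% of all 35116 starts. None of the 5 called SNHG RNAs did. The RefSeq start is 1 base among several that a cell may use, and a shift of a base would change this count.

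Of the snoRNAs that RefSeq places in SNHG introns, 83 rows were found, of which 46 had 0 reads in every library and 12 were tested. All 46 lie in SNHG14, in its SNORD115 and SNORD116 clusters, while the rows found in other hosts all had reads. The libraries were made from polyadenylated RNA, so reads on these rows are not the level of the mature snoRNA. SNORA71A, in SNHG17, had 24, 32 and 25 reads in controls against 19, 15 and 16 under TGFβ, with a log2 fold change of -0.81 ± 0.30 and an adjusted P of 0.235 by edgeR. SNORA71C, in the same host, had a log2 fold change of -0.85 ± 0.35 and an adjusted P of 0.294 by edgeR.

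Other genes without an SNHG name, listed as snoRNA hosts, were read out of the same fit. Whether each carries a snoRNA was not checked. Of 17 such genes, 0 passed without the block by edgeR (4.12% of all genes), with 5 at an unadjusted P under 0.05 (13.7% of all genes). DLEU2 (log2 fold change 0.25 ± 0.11) was the 1 of these 5 above 0. With the block 4 of the 17 (23.5%) were lower, against 3.75% of all genes. These 4 were GAS5 (log2 fold change -0.43 ± 0.12), EPB41L4A-AS1 (-0.44 ± 0.14) and TAF1D (-0.45 ± 0.11), with EIF4A2 at -0.20 ± 0.07. The ribosomal protein gene RPL13A, also a snoRNA host, had a log2 fold change of -0.03 ± 0.07. The list had a median of -0.05 and 14 of 17 genes below 0.

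Of 15 genes for snoRNP proteins and their assembly factors, 0 passed without the block by edgeR (4.12% of all genes), with 5 at an unadjusted P under 0.05 (13.7% of all genes), and 4 (26.7%) fell with it, against 3.75% of all genes. They were NOP56 of the C/D-box particle (-0.25 ± 0.08), GAR1 of the H/ACA-box particle (-0.37 ± 0.11), the H/ACA assembly factor NAF1 (-0.32 ± 0.09) and NOLC1, a nucleolar and Cajal body chaperone (-0.18 ± 0.07). The list median was -0.18, and 14 of 15 were below 0. Of 14 factors of nonsense-mediated decay, the pathway that degrades many spliced SNHG exons, 0 passed without the block by edgeR, with 1 at an unadjusted P under 0.05, against the same 4.12% and 13.7% of all genes. UPF1 (7.14% of the list, against 8.08% of all genes) rose with the block, by 0.19 ± 0.08 on the log2 scale, and the list median was 0.02.

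Among the 8 MIRHG members, 0 passed an FDR of 0.05 in edgeR with or without the block, against 4.12% of all genes without it and 11.8% with it, and DESeq2 and limma-voom also called 0. At an unadjusted P under 0.05 there were 2, both higher, MIR210HG and MIR22HG, against 13.7% of all genes. With 8 members, counts of 0 lie near these shares. Around a class median of 0.06 the log2 fold changes lay between -0.30 and 0.56, and 5 of 8 were above 0. The groups did not overlap for 4 of 8, with 2 higher and 2 lower (25% each, against 10.4% and 8.23% of all genes).

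MIR210HG, the host of the hypoxia-responsive miR-210, had the largest value. It had 88, 61 and 43 reads in controls against 126, 99 and 77 under TGFβ, or 0.997, 0.736 and 0.698 CPM against 1.30, 1.23 and 1.06 CPM. Each treated culture lay above every control. The log2 fold change was 0.56 ± 0.22, with an adjusted P of 0.285 without the block and 0.0926 with it. Its nearest tested gene, RASSF7, 1639 bp away on the opposite strand, had a log2 fold change of 0.37 ± 0.12 and an adjusted P of 0.145 without the block and 0.00458 with it.

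MIR22HG, the host of miR-22, had 10.8, 10.6 and 8.88 CPM with vehicle and 11.4, 14.9 and 11.8 CPM with TGFβ. The groups did not overlap, but TGFβ culture 1 was only 0.07 above its partner on the log2 scale, against 0.48 and 0.41 for the others. The log2 fold change was 0.33 ± 0.13, with an adjusted P of 0.307 without the block and 0.0543 with it. It overlaps WDR81 on the opposite strand, and WDR81 lay on the other side of 0, at -0.29 ± 0.11 with an adjusted P of 0.246 without the block and 0.00413 with it. Reads of MIR22HG and WDR81 cannot be told apart without strand.

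MIR17HG, the host of the miR-17-92 cluster, had 2.29, 2.39 and 2.08 CPM with vehicle and 1.95, 1.99 and 1.55 CPM with TGFβ. These groups did not overlap, but the log2 fold change of -0.30 ± 0.18 did not pass the test (adjusted P of 0.555 by edgeR, 0.263 with the block). MIR4458HG, the host of miR-4458, was 3.62, 3.70 and 4.01 CPM with vehicle and 3.38, 3.36 and 3.40 CPM with TGFβ, with a log2 fold change of -0.16 ± 0.14. MIR497HG held between 37.4% and 42.3% of the MIRHG reads and was the most abundant per length, at 3.64 RPKM. Its log2 fold change was 0.10 ± 0.10, and its groups overlapped. The MIR497HG row overlaps RP11-589P10.7 on the same strand and RNASEK-C17orf49 on the opposite strand, so its count is uncertain. In all, 5 of the 8 MIRHG members overlap a tested row and may share reads with it, among them MIR600HG with STRBP and MIRLET7DHG with RP11-2B6.2.

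MIR143HG, now CARMN and known from heart and smooth muscle, was the least abundant per length, at 0.0656 RPKM. It had 29, 59 and 52 reads in controls against 74, 68 and 57 under TGFβ. Vehicle culture 1 lay far below the others, and vehicle culture 3, at 0.844 CPM, lay within the treated range of 0.764 to 0.845 CPM, so the groups overlapped. MIR143HG had a log2 fold change of 0.36 ± 0.32, and of 0.03 without vehicle culture 1. The row of MIR145, which starts 1608 bp past the end of the MIR143HG row (chr5:148786252-148808241), had 48, 50 and 28 reads in controls against 124, 119 and 87 under TGFβ. It rose by 1.29 ± 0.22 on the log2 scale, with an adjusted P of 0.0087 by edgeR. RefSeq places the MIR145 hairpin inside the longer CARMN gene, and reads of polyadenylated RNA on this row are not mature miR-145. MIR600HG (-0.01 ± 0.16) and MIRLET7DHG (0.02 ± 0.23) changed by less than their errors, and both changed sign when some libraries were left out, MIRLET7DHG also with total-count scaling.

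**Figure D5:**
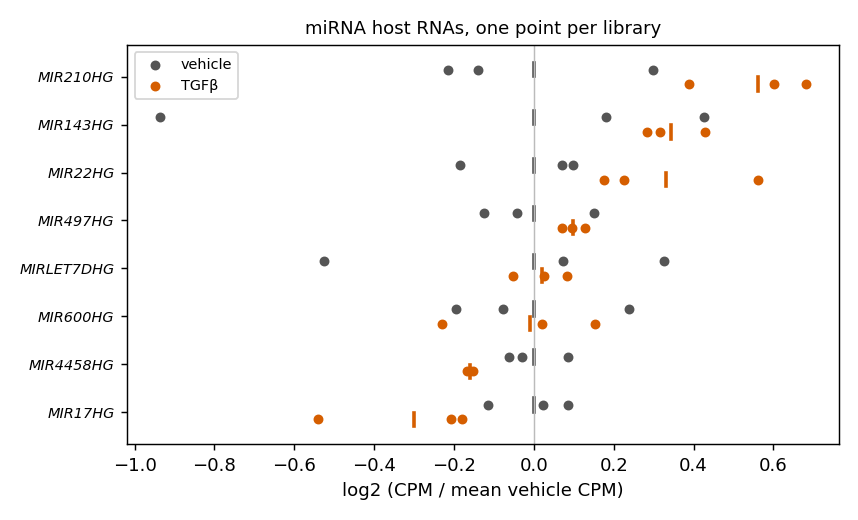
Level of each of the 8 miRNA host RNAs per library as log2 of its CPM over the mean vehicle CPM, with 1 point per culture, dark for vehicle and orange for TGFβ, and a vertical bar at each group mean. Treated points lie right of all vehicle points for MIR210HG and MIR22HG, and left of them for MIR17HG and MIR4458HG.

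The proteins that make and use miRNAs were read out of the same fit. Of 20 tested, 3 rose and 0 fell without the block (15%, against 4.12% of all genes). They were AGO2, the slicing Argonaute, at 0.76 ± 0.12, its paralog AGO4 at 0.60 ± 0.10, and SMAD3, the TGFβ signal transducer that also binds the DROSHA complex, at 0.90 ± 0.10. AGO2 had 2038, 1655 and 1267 reads in controls against 3609, 3302 and 2148 under TGFβ, so every treated culture lay above every control. The cutting enzymes had values near 0, with DROSHA at 0.02 ± 0.07 and DICER1 at -0.02 ± 0.09. LIN28B, which blocks let-7 maturation, fell with the block (-0.35 ± 0.11, adjusted P 0.00554).

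Well-known long noncoding RNAs outside these names were read out as well. Of 14 tested, 0 passed without the block by edgeR (4.12% of all genes) and 0 had an unadjusted P under 0.05 (13.7% of all genes). With the block 1 (7.14%) was called, against 11.8% of all genes. It was HULC, an RNA highly expressed in liver cancer, with 263, 261 and 351 reads in controls against 240, 170 and 289 under TGFβ. Its adjusted P was 0.608 without the block and 0.0458 with it. NEAT1 (log2 fold change -0.05 ± 0.17) and TUG1 (0.08 ± 0.08) had changes below or near their errors. MIR4435-1HG, a row named as a miRNA host, had 1921, 1928 and 1311 reads in controls against 2220, 2352 and 1774 under TGFβ. Its log2 fold change was 0.21 ± 0.10, with an adjusted P by edgeR of 0.452 without the block and 0.0898 with it.

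Within a group the cultures varied most for rare members. Among the 53 LINC members with at least 100 reads in every library, the coefficient of variation over the vehicle cultures had a median of 11.1% and reached 34.4%, for LINC00841. Over all 137 the median was 16.5%. For the 13 SNHG members the median was 9.64% with vehicle and 6.43% with TGFβ, with SNHG8 the most variable in both groups, at 21.2% and 22.6%.

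The read minimum left out 477 LINC rows, 12 MIRHG rows and 2 SNHG rows. Of these, 233 LINC rows had 0 reads in every library, and 33 LINC rows and 1 MIRHG row were still tested. LINC01121, LINC00887 and LINC00992 lay just inside, with a lowest library of 10 reads, and LINC00562 and LINC00087 with 9 and LINC01160 with 8 lay just outside. For 12 LINC rows only vehicle libraries were under the minimum and for 4 only TGFβ libraries. One of the rows left out, LINC00312, passed the test with the block. It had 10, 24 and 5 reads in controls against 43, 45 and 33 under TGFβ, with a log2 fold change of 1.54 ± 0.42 and an adjusted P of 0.0800 without the block and 0.00995 with it. SNHG15 had 2, 0 and 0 reads in controls against 4, 8 and 4 under TGFβ, too few to test.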

How the data were processed

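Polyadenylated RNA of HepG2 cultures (3 vehicle, 3 TGFβ) was sequenced as paired reads by the authors, who deposited raw counts per gene and RPKM values per library. The submitters' processing notes name bcl2fastq, TopHat2 2.0.6, HTSeq and build hg19, and the study's methods name the MAPRseq workflow. The deposited counts are raw whole numbers, and the RPKM values deposited beside them were used only to compare levels between genes. For the annotation release and the strand setting, nothing was given in the sources used here.

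Groups and culture numbers were taken from the labels. The cultures are separate samples by their labels and the P values measure the spread between them. Counts were fitted over the whole table with edgeR 4.0.16 (limma 3.58.1, R 4.3.3; TMM, filterByExpr, robust quasi-likelihood F test), and P values were adjusted by Benjamini-Hochberg over 22747 genes. Called means an FDR under 0.05, and CPM values use TMM library sizes. Standard errors were derived from each F statistic and log2 fold change. An exact permutation test of 3 against 3 cultures cannot give a P below 0.1. Culture number was accepted as a pairing because the correlations of deviations from group means were 0.366, 0.227 and 0.316 for equal numbers and at most 0.0101 for others; the labels put cultures 1 and 2 on their partner's lane but not cultures 3. Alternatives were DESeq2 1.42.0, limma-voom, other scalings and filters, the block and leaving out each library. The fits were tested on simulated counts. The members and lists were chosen with earlier results of these data known. All members of the MIRHG and SNHG classes were named, with the LINC members called with or without the block, the 5 highest by RPKM, those around the read minimum, their nearest tested and overlapping genes, and the called genes of the lists. LINC00574, LINC00841, the close pairs, and the uncalled genes of lists were named after their values were seen. Values of some list genes are not reported here.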

Additional observations from a re-analysis of the deposited data

How the results depend on the processing

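LINC01137 and LINC00511 were called under every alternative run, whereas LINC01071 lost its call when vehicle culture 1, 2 or 3 or TGFβ culture 1 or 2 was left out. The largest effect came from the replicate block, which raised the number of genes called over the whole table from 937 to 2690, of LINC members from 3 to 11 and of SNHG members from 0 to 5, while MIRHG members stayed at 0. It added calls and removed none among the members. LINC members called were 5 without a filter on low counts (adding LINC00598 and LINC01146) and 5 with DESeq2 (adding LINC00205 and LINC01146). SNHG members called were 1 with total-count scaling (SNHG17), 2 without a filter (SNHG1 and SNHG17) and 1 with DESeq2 (SNHG17). With 1 library left out, between 485 and 998 genes were called over the table, between 2 and 3 LINC members and between 0 and 2 SNHG members, the 2 being SNHG1 and SNHG3 without TGFβ culture 3; LINC01146 was called without vehicle culture 1 and LINC00598 without TGFβ culture 1. Total-count scaling moved the median log2 fold change of all genes from -0.01 to -0.05, that of LINC members to -0.11 and that of SNHG members to -0.18; with 1 library left out the SNHG median lay between -0.21 and -0.09.

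Among the members named, signs turned only for RNAs whose change was below its error. MIRLET7DHG was -0.03 with total-count scaling and -0.0023 without a filter. SNHG10 was -0.0012 with DESeq2's size factors, -0.04 with total-count scaling, -0.02 without a filter, -0.0013 with DESeq2, -0.00041 with limma-voom and -0.00063 with the replicate block, and SNHG14 was -0.0013 with total-count scaling. With 1 library left out, MIR600HG lay between -0.11 and 0.12, MIRLET7DHG between -0.20 and 0.22, SNHG10 between -0.06 and 0.03, SNHG14 between -0.03 and 0.13, SNHG5 between -0.21 and 0.06, and SNHG7 between -0.09 and 0.01. The cause of these moves was not tested. Depth limits the LINC class most, because only 53 of its 137 members had at least 100 reads in every library.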
